A study of Mus musculus with 24 samples.

Results

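The untreated cultures of both experiments in a study of ethanol and cultured mouse oligodendrocytes were set against each other. All 12 control wells of the 24 wells in the series were taken, by their labels: 6 from experiment 1 and 6 from experiment 2, each kept at 0 mM ethanol. The 12 ethanol wells were not used, except in 1 alternative fit. Both control groups came from cortex of C57BL/6J pups of postnatal days 5 to 7, and the labels name no transgene or deletion. Tissue was digested with papain, and cells carrying O4, a surface antigen of late precursors and immature oligodendrocytes, were collected on magnetic beads. They were plated on poly-D-lysine and laminin, differentiated for 3 days mainly by triiodothyronine (T3), the active thyroid hormone, and then held for 3 more days in an incubator apart from the ethanol plates. The labels name the 2 experiments as 2 batches and give the groups no other difference. Experiment, litter, sort, culture period and library preparation therefore cannot be told apart. The labels call wells biological replicates without saying whether each came from its own animals or sort, so p-values measure the spread between wells, which may be partly technical.

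Oligodendrocytes arise from proliferating precursors that carry the growth factor receptor PDGFRA and the proteoglycan NG2. These pass through a short committed stage marked by BCAS1, GPR17 and ENPP6, stop dividing and then make the proteins and the cholesterol-rich lipids of myelin. Thyroid hormone drives this step in culture. Cultures made from early postnatal cortex can also hold astrocytes, microglia, fibroblasts and vascular or choroid plexus cells, since a bead sort enriches and does not purify.

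RNA was measured by 3′ tag sequencing, which counts reads from near the end of each transcript, so counts do not scale with transcript length. Total counts per well ranged from 1227777 to 1817028 in experiment 1 and from 1248730 to 1520724 in experiment 2. The mean difference was 177752 counts (exact two-sided permutation test, p = 0.0649, where 6 wells against 6 can reach 0.00216). That p became 0.00866 without replicate 6 of experiment 1 and 0.0455 without replicate 1 of experiment 2, by the same exact test. A gene was detected, with at least 1 count, in 24319 to 24506 rows per well in experiment 1 and in 25417 to 26242 in experiment 2. Mitochondrial transcripts took 2.94% to 3.82% of counts in experiment 1 and 2.06% to 2.39% in experiment 2. Neither of these ranges overlapped, and the part of either in the results was not tested. A floor of 3 counts corresponded to between 1.70 and 2.40 CPM (counts scaled to a common library size), and floors cover counting error only. The experiments lay apart on the first principal component of these 12 wells, which carried 76.9% of the variance of 1000 genes with the widest spread. Replicate 6 of experiment 1 stood apart from the other wells on the second component (5.43% of the variance). Without it, the lists described below had 26 called microglia genes, 15 contractile, 21 cholesterol and 24 NRF2 genes, as many as with it. Log2 CPM of 2 wells correlated at 0.960 to 0.977 within experiment 1, at 0.967 to 0.972 within experiment 2 and at 0.910 to 0.932 between them (across genes, so with no independent replicates).

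Of 13479 genes tested with edgeR's quasi-likelihood test, 5881 (43.6%) differed at an adjusted p under 0.05. Of these, 2922 (21.7% of genes tested) were higher in experiment 1 and 2959 (22.0%) in experiment 2. With upper quartile scaling the split was 2320 against 3601. Most differences were small: the median absolute log2 fold change was 0.28 over all genes tested and 0.52 over those called. At least 2-fold differences were found for 718 genes (5.33%), 211 (1.57%) higher in experiment 1 and 507 (3.76%) higher in experiment 2. A gene could pass the expression filter through the wells of 1 experiment only, which favoured a higher level there. The filter's level was reached in both by 10384 genes. Of these, 124 (1.19%) were at least 2-fold higher in experiment 1 and 133 (1.28%) in experiment 2. All 6 wells of experiment 1 lay above all 6 of experiment 2 for 1392 genes (10.3%), and the reverse held for 1164 (8.64%). All log2 fold changes are experiment 1 over experiment 2, so negative values mean a higher level in experiment 2. Against these shares, each list of marker genes was described by its counts and its median, with no test of the list, beside a median of -0.0042 over all genes tested. In bulk samples, fewer cells of a type and less RNA per cell cannot be told apart.

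**Figure D1:**
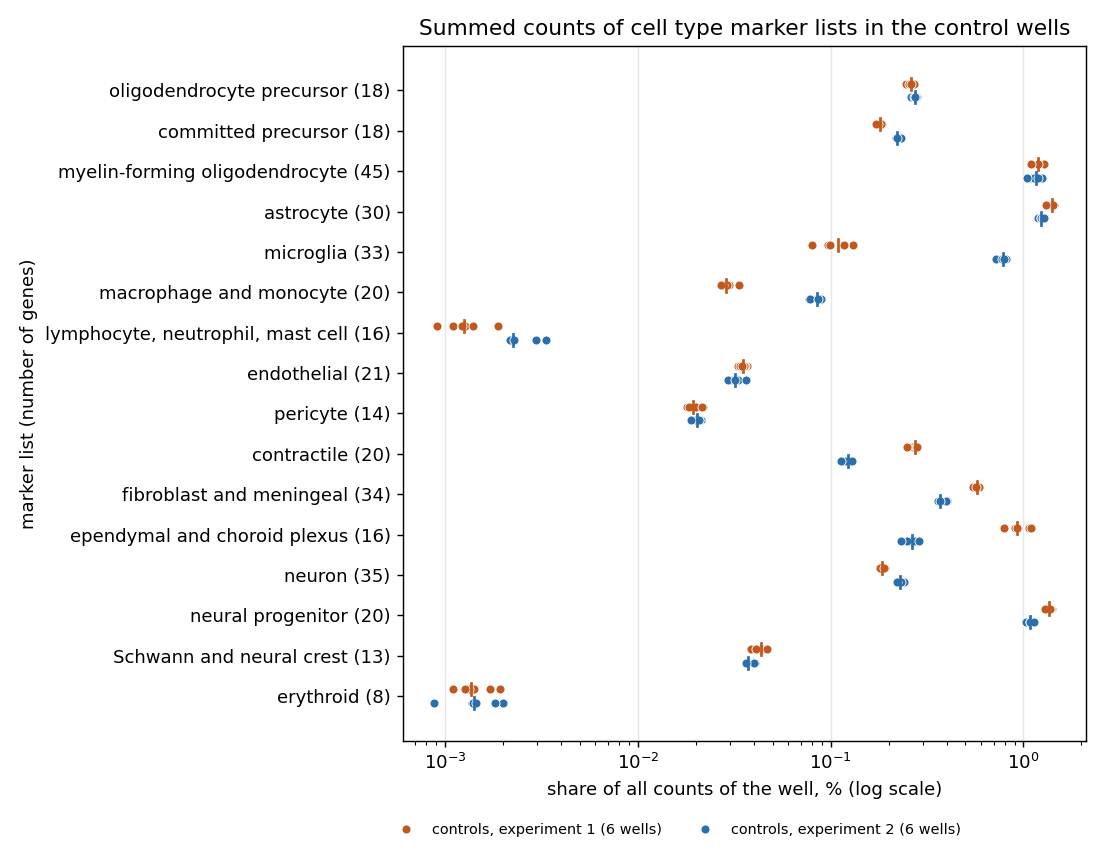
Share of each well's counts taken by each cell type marker list, in percent on a log scale; each point is 1 control well and each vertical tick the median of 6 wells. The microglia list sits between 0.0801% and 0.131% in experiment 1 and between 0.725% and 0.809% in experiment 2, while the myelin list overlaps between experiments.

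The main myelin genes were at close levels in both sets of wells. Mbp, which encodes myelin basic protein, was at 2346 CPM in the lowest, 2551 in the median and 2680 in the highest well of experiment 1, and at 2091, 2415 and 2806 CPM in experiment 2. The groups overlapped, and the log2 difference was 0.05 (95% interval -0.05 to 0.15, adjusted p = 0.470). Mog, a surface protein of the outermost myelin layer and a late marker, was at 107, 125 and 150 CPM against 101, 127 and 136 CPM, with a difference of 0.04 (-0.11 to 0.20). Cnp, Mag and Mal, further myelin proteins, differed by 0.09 (-0.01 to 0.20), -0.11 (-0.24 to 0.01) and -0.07 (-0.20 to 0.06) on the log2 scale, and none passed. Cnp passed without replicate 6 of experiment 1, and Mag under 3 alternatives, 1 of them without replicate 6 of experiment 2. Each of these 5 intervals lies inside a log2 change of 0.5 in either direction. Myrf, the transcription factor that turns on myelin genes, had medians of 47.5 and 55.1 CPM and did not pass (log2 fold change -0.22, adjusted p = 0.0655). It passed under 4 alternatives, 2 of which left out a well (replicate 2 of experiment 1 or 5 of experiment 2).

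Across the list of myelin-forming oligodendrocytes, 42 of 45 genes were tested, 11 were higher in experiment 1, 11 higher in experiment 2 and 20 did not pass, with a median log2 fold change of 0.05. The list took 1.10% to 1.28% of counts in experiment 1 and 1.04% to 1.24% in experiment 2, so the groups overlapped. Members with large differences in it included genes that other brain cells also express. Enpp2, the secreted enzyme autotaxin, which choroid plexus epithelium makes as well, was at 1158, 1484 and 1830 CPM in experiment 1 and 520, 600 and 701 CPM in experiment 2, with no overlap (log2 fold change 1.33, SE 0.108, adjusted p = 6.14e-07). Ptgds, prostaglandin D synthase, which meninges and choroid plexus also make, was higher in experiment 1 (log2 fold change 0.59). Trf, the iron carrier transferrin, was lower in every well of experiment 1 (298, 342 and 398 CPM) than in any of experiment 2 (623, 734 and 792 CPM), with a log2 fold change of -1.07 (SE 0.0570, adjusted p = 1.06e-32).

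Evi2a, a small membrane protein gene lying inside an intron of Nf1, had medians of 1.48 CPM, under the floor, and 11.6 CPM, and differed most in the list (-2.71). Gjc3, a connexin of oligodendrocytes, and Cntn2, a cell adhesion molecule of the region beside the node of Ranvier, were higher in experiment 2 in every well (-0.58 and -0.79). Marker lists of choroid plexus and microglia, described further on, moved in the same directions as Enpp2 and as Trf and Evi2a, and their part in these differences was not tested.

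Precursor markers showed differences in both directions. All 18 listed genes were tested: 5 were higher in experiment 1, 9 higher in experiment 2 and 4 did not pass, with a median of -0.19. Without replicate 3 of experiment 1, 9 of these genes passed in place of 14. Summed, they took 0.246% to 0.269% of counts in experiment 1 and 0.261% to 0.279% in experiment 2, and the groups overlapped. Cspg4, which encodes NG2, was at 19.9, 30.1 and 36.3 CPM in experiment 1 and 38.7, 50.3 and 59.2 CPM in experiment 2 (log2 fold change -0.72, SE 0.126, adjusted p = 1.04e-06). The groups did not overlap, though pericytes also make NG2. Pdgfra was at 45.3, 55.0 and 71.8 CPM against 53.0, 65.0 and 80.0 CPM, and these ranges overlapped. Its log2 fold change of -0.25 passed narrowly (adjusted p = 0.0438). The call was lost on leaving out any of 6 single wells, with adjusted p from 0.0747 to 0.160. These were replicates 3, 4 and 5 of experiment 1 and 2, 4 and 5 of experiment 2. It was also lost with scaling to lineage genes, with DESeq2, with no filter and with a filter of 1 CPM.

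The extracellular matrix genes Matn4 (-0.82) and Vcan (-0.65), matrilin 4 and versican, and the phosphatase gene Ptprz1 (-0.21) were higher in experiment 2 in every well. Ncan, the proteoglycan neurocan (0.24), and the endothelin receptor gene Ednrb (0.38) were higher in experiment 1 in every well, and astrocytes express these as well. Cspg5, neuroglycan C, was called higher in experiment 2 by a small amount (-0.15, adjusted p = 0.0297), and that call was lost in 9 of 23 alternatives, 6 of which left out 1 well (replicates 2, 3, 4 and 6 of experiment 1 and 5 and 6 of experiment 2, adjusted p from 0.0515 to 0.0809).

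Markers of the committed stage were at a higher summed level in experiment 2. The list of 18 genes took 0.172%, 0.180% and 0.184% of counts in the lowest, median and highest well of experiment 1 and 0.219%, 0.221% and 0.232% in experiment 2, without overlap. Of 17 genes tested, 7 were higher in experiment 2, 1 in experiment 1 and 9 did not pass (median -0.17). The share called either way, 47.1%, was near the 43.6% over all genes tested. Of the 16 that reached the filter's level in both experiments, 6 were higher in experiment 2 and 1 in experiment 1 (median -0.16). Bcas1, whose protein marks oligodendrocytes that are starting to form myelin, was at 465, 573 and 612 CPM against 674, 704 and 778 CPM (log2 fold change -0.34, SE 0.0541, adjusted p = 7.22e-08). Enpp6, a choline phosphodiesterase of newly formed oligodendrocytes, was at 102, 119 and 131 CPM against 141, 153 and 173 CPM (-0.39). Neither gene's groups overlapped. Itpr2, a calcium channel of the endoplasmic reticulum, was higher in experiment 2 in every well (-0.64). Neu4, a sialidase, was low, with medians of 7.39 and 10.7 CPM, and its call (-0.64) was lost without replicate 2 of experiment 1 or without replicate 2 or 6 of experiment 2 (adjusted p 0.0774, 0.0747 and 0.0618). The Neu4 call was also lost with DESeq2, with no filter and with a filter of 1 CPM. Rras2, a small GTPase, was the member higher in experiment 1 (0.53).

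The receptor gene Gpr17, the most stage-restricted marker of the list, was at 23.6, 32.0 and 34.0 CPM in experiment 1 and 22.2, 30.2 and 34.9 CPM in experiment 2. It did not pass, and its log2 difference of 0.07 had a 95% interval from -0.20 to 0.34. The kinase gene Fyn did not pass either (-0.10, interval -0.23 to 0.03). The members of this list thus did not differ alike: Bcas1, Enpp6 and Itpr2 were higher in experiment 2, and the groups of Gpr17 and Fyn overlapped.

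Transcription factors shared by the whole lineage did not move together. Olig2 was at 126, 138 and 155 CPM in experiment 1 and 93.3, 118 and 141 CPM in experiment 2, with overlap. It was called higher in experiment 1 (log2 fold change 0.23, adjusted p = 0.00981, but 0.0735 without replicate 2 of experiment 2). That call was also lost with upper quartile scaling and with a joint fit of all 24 wells. Sox10 was at 97.0, 117 and 130 CPM against 124, 144 and 167 CPM and was called higher in experiment 2 (-0.33, adjusted p = 0.000150). Olig1 (0.12, interval -0.00 to 0.24), Sox8 (-0.21, -0.42 to -0.01) and Nkx2-2 (0.03, -0.22 to 0.28) did not pass. Without replicate 6 of experiment 1, 4 of the 5 passed in place of 2, Olig1 and Sox8 among them. Olig1 also passed without replicate 1 of experiment 2, and Sox8 without replicate 2. Scaling to the summed counts of these 5 genes in place of all genes gave 5475 calls, 5473 of them among the 5881.

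Of 27 lineage transcription factors tested, 10 were higher in experiment 1, 5 higher in experiment 2 and 12 did not pass (median 0.03). Id1, an inhibitor of oligodendrocyte differentiation downstream of BMP, was at 183, 198 and 213 CPM against 107, 126 and 140 CPM, without overlap (log2 fold change 0.67). Hes5, a Notch target, was called higher in experiment 1 (0.69), but not without replicate 1 of that experiment (0.46, adjusted p = 0.120). Zeb2, which promotes myelination and is also expressed in microglia, was higher in experiment 2 in every well (-0.75), as was Sox2 (-0.43), a factor of stem and glial cells.

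Ratios within a well, chosen after the values were seen, set myelin against stage markers without any scaling. The ratio of Mbp to Bcas1 counts was 3.98, 4.49 and 5.05 in experiment 1 and 3.10, 3.36 and 3.97 in experiment 2, which come close without overlapping. Mbp over Sox10 was 20.1, 21.5 and 25.1 against 14.9, 16.9 and 19.5, again without overlap. Mbp over Pdgfra was 36.2, 47.0 and 59.2 against 33.1, 36.9 and 43.1, and these overlapped. Mbp over Cspg4 was 65.2, 83.8 and 125 against 40.9, 48.5 and 68.1, which overlapped as well. Bcas1 and Sox10 were already called higher in experiment 2 while Mbp did not pass, so these ratios restate those values and add no test.

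**Figure D2:**
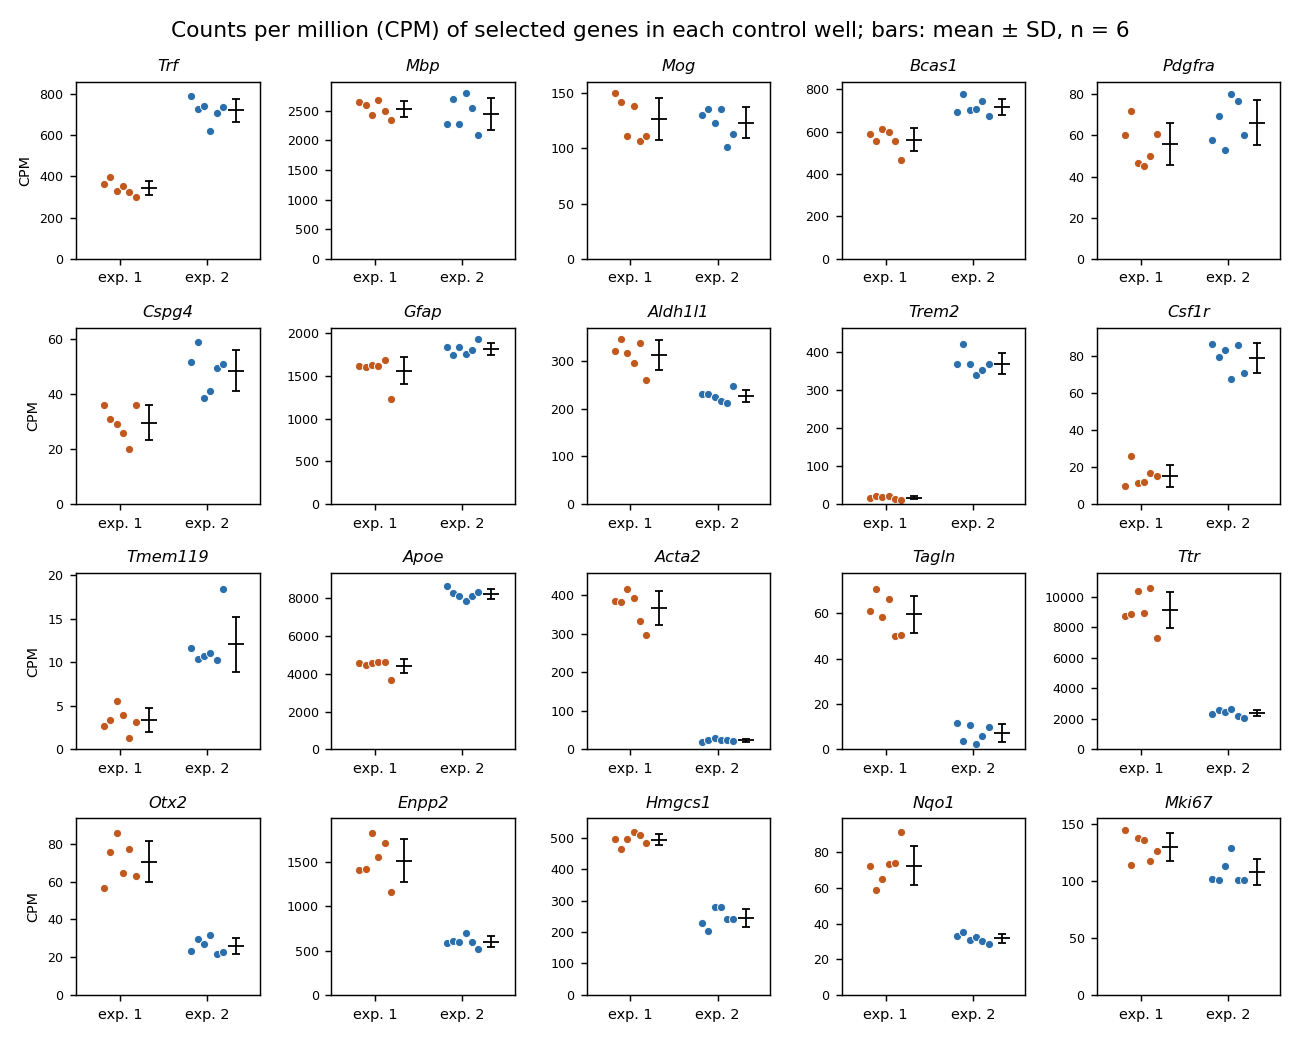
Scaled counts (CPM, y axis from 0) of 20 genes in each of the 12 control wells (points), with the mean and SD of 6 wells beside them. Mbp and Mog overlap between experiments, Trem2 lies at 10.4 to 20.4 CPM against 339 to 421 CPM, and Acta2 at 295 to 415 CPM against 18.8 to 30.8 CPM.

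Astrocyte genes were abundant in both experiments, in cultures labelled as oligodendrocytes. The list of 30 markers took 1.31%, 1.41% and 1.45% of counts in experiment 1 and 1.19%, 1.24% and 1.28% in experiment 2, without overlap. That sum is larger than the share of the 45 myelin genes in each experiment's median well, although shares of different lists depend on which genes they hold. Of 27 genes tested, 20 were higher in experiment 1, 2 higher in experiment 2 and 5 did not pass (median 0.31). Aldh1l1, a folate enzyme used to mark astrocytes, was at 259, 318 and 345 CPM against 212, 227 and 247 CPM (log2 fold change 0.46, SE 0.0614). Fabp7, a fatty acid binding protein of immature astrocytes and progenitors, was at 3905, 4088 and 4507 CPM against 2759, 3031 and 3201 CPM (0.47). Clu, the chaperone clusterin, was higher in experiment 1 (0.36). The water channel gene Aqp4 was called higher there (0.19) with overlapping wells, and that call was lost with upper quartile scaling. The largest differences in the list were those of the zinc transporter gene Slc39a12 (1.22), the neurotensin receptor gene Ntsr2 (0.81) and Chrdl1 (0.75), which encodes a secreted BMP inhibitor.

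Gfap, the intermediate filament protein that rises in reactive astrocytes, went the other way. It was at 1236, 1615 and 1685 CPM in experiment 1 and 1746, 1817 and 1932 CPM in experiment 2 (log2 fold change -0.22, adjusted p = 0.000405), without overlap. Slc1a2, the main glutamate transporter of mature astrocytes, was the other member higher in experiment 2 (-0.37), and was named after its values were seen. Slc1a3, the glutamate transporter of younger astrocytes, had overlapping groups with medians of 1055 and 1006 CPM (0.06, interval -0.04 to 0.16).

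Of 19 tested genes of reactive glia, 10 were higher in experiment 2, 5 higher in experiment 1 and 4 did not pass (median -0.22). Serpina3n, a protease inhibitor induced in reactive astrocytes, was at 2253 to 2555 CPM against 2623 to 3017 CPM (-0.23). Chil1, a chitinase-like protein (-0.74), and Cd14, a lipopolysaccharide co-receptor of microglia as well (-1.39), were also higher in experiment 2, and Steap4, a metalloreductase (1.00), was higher in experiment 1. The summed share of this list overlapped between experiments. Of 19 tested neural progenitor genes, 13 were higher in experiment 1, 2 higher in experiment 2 and 4 did not pass (median 0.38); the list shares Fabp7 and Slc1a3 with the astrocyte list.

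Microglia genes differed most between the untreated cultures. The list of 33 markers took 0.0801%, 0.109% and 0.131% of counts in experiment 1 and 0.725%, 0.782% and 0.809% in experiment 2, a ratio of medians of 7.19. Without Lyz2, the lysozyme gene that contributes most, the ratio was 8.46. Of 27 genes tested, 26 were higher in experiment 2 and 1 did not pass (median -2.87), and 25 had all wells of experiment 2 above all of experiment 1. Since 10 of the 27 reached the filter's level only in experiment 2, the filter favoured a higher level of these 10 there. Of the 17 that reached it in both, 16 were higher in experiment 2 (median again -2.87). Of all 10384 genes that reached it in both, 1880 (18.1%) were higher in experiment 2 and 2667 (25.7%) in experiment 1. The 6 members not tested, P2ry12 and Gpr34 among them, had 3 to 18 counts over the 6 wells of experiment 1 and 8 to 62 over those of experiment 2.

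Trem2, a lipid receptor of microglia, was at 10.4, 18.2 and 20.4 CPM in experiment 1 and 339, 368 and 421 CPM in experiment 2 (log2 fold change -4.41, SE 0.0931, adjusted p = 1.04e-68). Cx3cr1, the fractalkine receptor, was at 2.74, 5.35 and 7.92 CPM against 93.1, 116 and 127 CPM (-4.36). Csf1r, the receptor on which microglia depend for survival, was at 9.58, 13.5 and 26.2 CPM against 67.4, 81.1 and 86.7 CPM (-2.39). None of the 3 overlapped between experiments, but they did not differ by one factor: Trem2 over Csf1r counts was 0.684, 1.30 and 1.78 in experiment 1 and 4.10, 4.74 and 5.32 in experiment 2. That ratio was chosen after the values were seen.

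Complement and signalling genes of these cells followed. C1qa, C1qb and C1qc, which encode the chains of the complement starter C1q, had log2 fold changes of -2.87, -3.40 and -3.29. Tyrobp, the adaptor through which TREM2 signals, was at 38.3, 54.0 and 73.2 CPM against 685, 729 and 806 CPM (-3.77). Laptm5 (-3.86), Fcgr3 (-3.89), Ly86 (-3.82) and Itgam (-3.61), a lysosomal membrane protein, an antibody receptor, a partner of a toll-like receptor homologue and an integrin chain, showed differences of like size. Aif1, which encodes IBA1, differed by -2.99, and Ptprc, the pan-leukocyte antigen CD45, by -1.34.

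Tmem119 and P2ry12, which mark resting microglia, were at low levels in both experiments. Tmem119 was at 1.33, 3.28 and 5.60 CPM in experiment 1 and 10.3, 10.9 and 18.5 CPM in experiment 2 (-1.81, SE 0.291). P2ry12, a purine receptor, was not tested, at 0 to 2.01 CPM against 2.96 to 4.43 CPM, around the floor in experiment 1. Sall1, a transcription factor of microglia that progenitors and astrocytes can express too, was the 1 tested member that did not pass, at 23.5, 25.3 and 31.1 CPM against 19.3, 29.6 and 33.3 CPM (-0.04, interval -0.32 to 0.25), and was named after its values were seen. Tmem119 over Csf1r counts overlapped between experiments, at 0.080 to 0.50 against 0.121 to 0.260.

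Genes of phagocytic and lipid-handling microglia were abundant in experiment 2. This list of 24 took 0.963%, 1.08% and 1.10% of counts in experiment 1 and 2.42%, 2.57% and 2.64% in experiment 2. Of 19 tested, 17 were higher in experiment 2 and 2 in experiment 1 (median -2.15). Of the 19, 4 reached the filter's level only in experiment 2, so the filter favoured a higher level of these 4 there. Of the 15 that reached it in both, 13 were higher in experiment 2 and 2 in experiment 1, with a smaller median of -1.31. Spp1, the secreted phosphoprotein osteopontin, was at 163, 201 and 216 CPM against 1828, 1979 and 2135 CPM (log2 fold change -3.32, SE 0.0592). Gpnmb, a lysosomal glycoprotein of lipid-laden phagocytes, was at 183, 226 and 252 CPM against 1823, 1898 and 2165 CPM (-3.11). Every well of experiment 2 thus held several times the level of any well of experiment 1. Lipoprotein lipase, Lpl (-3.25), the fungal sugar receptor gene Clec7a (-3.74) and the growth factor gene Igf1 (-2.37) were higher in experiment 2 as well.

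Broadly expressed lysosome and lipid genes differed less. Apoe, the lipid carrier that astrocytes also secrete, was at 3674, 4581 and 4633 CPM against 7844, 8190 and 8625 CPM (-0.89), and the cathepsin genes Ctsd and Ctsb differed by -1.31 and -1.10. The 2 list members higher in experiment 1 were Csf1, a CSF1R ligand that glia make, at 197, 219 and 235 CPM against 117, 123 and 144 CPM (0.79), and the receptor kinase gene Axl (0.67), which was named after its values were seen. The ligand Csf1 and its receptor gene Csf1r thus differed in opposite directions.

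Macrophage markers moved with those of microglia, with which they share expression. Their list took 0.0271% to 0.0336% of counts in experiment 1 and 0.0771% to 0.0887% in experiment 2, and each of the 9 genes tested, of 20, was higher in experiment 2 (median -1.08). Of these, 5 reached the filter's level only there, and the 4 that reached it in both had a median of -1.45. Pf4 (-2.01), Mrc1 (-2.77), Stab1 (-2.48) and Ms4a7 (-2.39), a chemokine, the mannose receptor, a scavenger receptor and a membrane protein of border macrophages, led it. Genes of lymphocytes, neutrophils and mast cells were near the floor: none of 16 was tested, 4 were at 0 in all wells, and the list took 0.000904% to 0.00187% of counts against 0.00216% to 0.00333%. Cd3e, of T cells, was at 1.13 to 3.36 CPM and 1.48 to 4.30 CPM, and S100a8, of neutrophils, at 1.24 to 5.60 CPM and 5.82 to 12.8 CPM.

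**Figure D3:**
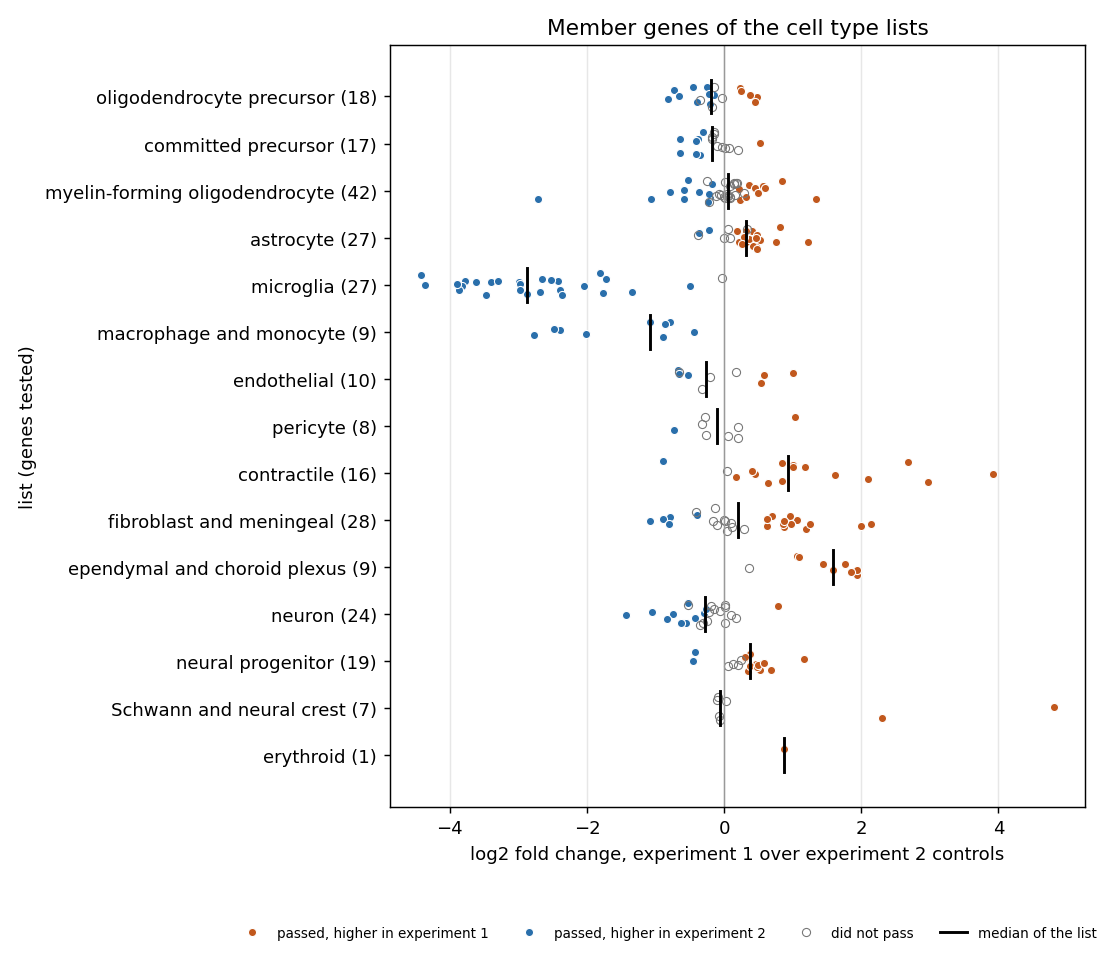
Log2 fold change (experiment 1 over experiment 2 controls, x axis) of each tested gene of the cell type lists, 1 point per gene, filled where it passed edgeR's test, with the list's median as a black bar. Microglia genes spread from -4.41 to -0.04, contractile genes reach 3.92, and the medians of the 3 oligodendrocyte lists lie between -0.19 and 0.05.

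Contractile genes were higher in experiment 1. The list of 20 smooth muscle and myofibroblast genes took 0.250%, 0.273% and 0.281% of counts in experiment 1 and 0.113%, 0.123% and 0.129% in experiment 2, a ratio of medians of 2.21. Of 16 genes tested, 14 were higher in experiment 1, 1 in experiment 2 and 1 did not pass (median 0.93). Of the 13 that reached the filter's level in both experiments, 11 were higher in experiment 1. Acta2, smooth muscle alpha-actin, was at 295, 383 and 415 CPM against 18.8, 24.1 and 30.8 CPM. Tagln, the actin-binding protein transgelin, was at 49.8, 59.7 and 70.5 CPM against 2.38, 7.92 and 11.6 CPM (log2 fold change 2.97, SE 0.171, adjusted p = 5.72e-29). Tagln passed the filter through experiment 1, which favoured a higher level there. Calponin 1, Cnn1, was at 85.3, 93.3 and 116 CPM against 11.8, 13.9 and 19.4 CPM (2.68). In each of these genes the lowest well of experiment 1 stood far above the highest of experiment 2.

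Myl9, a regulatory myosin light chain, was at 274, 339 and 364 CPM against 66.5, 76.7 and 90.8 CPM (2.10). Genes of the list that many cell types express differed less, among them Tpm1 (1.00), Cald1 (0.85) and Flna (1.00), which encode a tropomyosin, caldesmon and filamin A, and Tpm2 differed by 1.62. Mylk, the kinase that activates smooth muscle myosin, was higher in experiment 2 in every well (-0.89). Myh11, the myosin heavy chain of differentiated smooth muscle, was at 0.566 to 2.05 CPM and 0 to 2.15 CPM, at or under the floor in both experiments, and was not tested. The pericyte receptor gene Pdgfrb did not pass (0.21, interval -0.14 to 0.56), and 6 of 8 tested pericyte genes did not, with a summed share that overlapped.

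Serum response factor binds the CArG box, a motif known from promoters of contractile genes. RefSeq promoter windows on GRCm38.p6, from 250 bases before to 50 after each transcript start, matched 17 of the 20 contractile genes, in 20 windows. Of these windows 1, that of Myl9, held the motif, which was in 1.63% of all 32851 windows. It is shown because the list moved together, with the box in capitals, at chr2:156775278-156775337 on the plus strand, with the first base of the box 161 before the start:
Myl9: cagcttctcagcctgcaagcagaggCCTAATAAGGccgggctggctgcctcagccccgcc
Among microglia genes, 24 of 33 matched windows, 29 windows in all. Of these windows 3, those of C1qc, Cd53 and Ctss, held GAGGAAGT on either strand. It is a form of the site of the myeloid factor PU.1 and was found in 3.20% of all windows. That of C1qc, at chr4:136893077-136893134 on the minus strand and written along the gene, has the reverse complement in capitals, with its first base 195 before the start:
C1qc: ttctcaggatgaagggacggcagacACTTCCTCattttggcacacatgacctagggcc
A match is a description of the letters and not of binding, and the motifs overlap no other searched motif.

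Fibroblast and matrix genes were higher in experiment 1 in sum but not in every family. The list of 34 took 0.551%, 0.573% and 0.591% of counts in experiment 1 and 0.360%, 0.368% and 0.400% in experiment 2. Of 28 tested, 13 were higher in experiment 1, 5 higher in experiment 2 and 10 did not pass (median 0.21). Since 3 reached the filter's level only in experiment 2 and 1 only in experiment 1, the 23 that reached it in both gave another balance, 12 against 3 with a median of 0.63. Sparc, a matrix glycoprotein that astrocytes, microglia and endothelium also make, was at 2211, 2507 and 2615 CPM against 1310, 1349 and 1525 CPM (0.85), and the growth factor binding protein gene Igfbp2 at 1313, 1505 and 1753 CPM against 696, 776 and 827 CPM (0.98). Ogn (2.14), Postn (2.00), Lox (1.20) and Loxl1 (1.26), which encode osteoglycin, periostin and enzymes that cross-link collagen, were higher in experiment 1 in every well.

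The collagen genes Col1a1, Col1a2 and Col3a1, which fibroblasts express strongly, were not among the genes called higher in experiment 1. Col1a1 was at 121, 151 and 205 CPM against 141, 168 and 209 CPM and did not pass (-0.10, interval -0.39 to 0.18). Col1a2 (-0.40) and Col3a1 (-0.78) were called higher in experiment 2 with overlapping wells, as was Mgp, matrix Gla protein (-1.07), without overlap. The Col3a1 call was lost with a replicate block. Other collagen genes of the list, Col5a1 (0.63), Col5a2 (1.06) and Col6a1 (0.87), were called higher in experiment 1, and these 3 were named after their values were seen. Dcn, decorin, did not pass (-0.41, adjusted p = 0.0535), but passed under 10 of 23 alternatives, 4 of which left out a well (replicates 1, 3 and 6 of experiment 1 and 3 of experiment 2).

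Endothelial genes gave no common direction: of 10 tested of 21, 3 were higher in experiment 1, 3 higher in experiment 2 and 4 did not pass, and the summed shares overlapped. Pecam1, an adhesion molecule of endothelium, had medians of 20.7 and 22.2 CPM (-0.20, interval -0.53 to 0.13). Cldn5, the tight junction protein of brain endothelium, was listed at 0 in all 12 wells, which can be a failure of counting. Slco1c1, a thyroid hormone transporter of brain endothelium and choroid plexus, was higher in experiment 1 in every well (1.01), as was Zic1, a transcription factor listed with pericytes (1.04), while Vwf, von Willebrand factor (-0.66), was higher in experiment 2 and Kdr, a VEGF receptor (0.55), in experiment 1.

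Choroid plexus and ependymal genes were higher in experiment 1. The list of 16 took 0.794%, 0.929% and 1.09% of counts in experiment 1 and 0.232%, 0.266% and 0.288% in experiment 2, a ratio of medians of 3.50, or 2.79 without Ttr. Of 9 genes tested, 8 were higher in experiment 1 and 1 did not pass (median 1.59), and the 7 that reached the filter's level in both experiments were among the 8. With no filter, or one of 1 CPM, 13 of the list passed. Ttr, the thyroid hormone carrier transthyretin that choroid plexus epithelium secretes, was at 7327, 8894 and 10592 CPM against 2090, 2392 and 2629 CPM (log2 fold change 1.94, SE 0.0721, adjusted p = 1.25e-19). It was an abundant transcript in both sets of wells. Otx2, the transcription factor that maintains choroid plexus, was at 56.8, 70.2 and 85.8 CPM against 21.4, 25.2 and 31.7 CPM (1.45). The folate receptor gene Folr1 (1.59), the chloride channel gene Clic6 (1.94), the potassium channel subunit gene Kcne2 (1.76) and the water channel gene Aqp1 (1.86), all of choroid epithelium, were higher in experiment 1 in every well. Of 3 tested ependymal genes 2 were: Foxj1, the master factor of motile cilia (1.07), and Enkur, a ciliary protein (1.09).

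Neuron markers were a little higher in experiment 2. The list of 35 took 0.180% to 0.191% of counts in experiment 1 and 0.222% to 0.240% in experiment 2, without overlap. Of 24 tested, 10 were higher in experiment 2, 1 in experiment 1 and 13 did not pass (median -0.28). The share called either way, 45.8%, was near the 43.6% over all genes tested. Tubb3, a neuronal tubulin, was at 163, 190 and 235 CPM against 259, 285 and 332 CPM (-0.55), and Elavl3 (-0.42), an RNA-binding protein, Nefm (-1.05), a neurofilament, and Snhg11 (-1.43), a noncoding RNA, were higher in experiment 2 in every well. Rbfox3, the gene of the nuclear marker NeuN, was called with overlapping wells (-0.63).

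Schwann cells form the myelin of peripheral nerve. Prx, the Schwann cell protein periaxin, was at 7.31 to 14.4 CPM against 0 to 4.26 CPM (2.31), and fell out of the test on leaving out replicate 1, 2, 3 or 4 of experiment 1. Prx passed the filter through experiment 1, which favoured a higher level there. Of 7 tested Schwann and neural crest genes 5 did not pass, among them Pmp22, a membrane protein of peripheral myelin, with medians of 208 and 216 CPM (-0.09, interval -0.21 to 0.04). Of the 7, 3 reached the filter's level in both experiments, and none of these was called. Other members, such as Ngfr and Foxd3, were too low to test, with 41 and 31 counts, and 11 and 3, over the 6 wells of each experiment. The hemoglobin genes were at or near the floor: Hbb-bs, an adult beta-globin gene, was listed at 0 in all wells of experiment 1 and was at 1.29 to 3.70 CPM in experiment 2, and globin genes have near-identical copies.

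The strongest calls fell partly in these lists. Genes at least 8-fold higher numbered 3 in experiment 1 (0.0223% of genes tested) and 56 in experiment 2 (0.415%). Of those 56, 15 (26.8%) were among the 54 tested microglia, phagocyte and macrophage genes, which is 27.8% of those 54. Of 507 genes at least 2-fold higher in experiment 2, 43 (8.48%) were, which is 79.6% of the 54. Part of the 54 passed the filter only through experiment 2, which favoured a higher level of these genes there. Among the 35 that reached its level in both, 26 (74.3%) were at least 2-fold higher in experiment 2, as were 133 (1.28%) of all 10384 such genes. At least 8-fold higher there were 9 (25.7%) of the 35 and 13 (0.125%) of the 10384. Of 211 at least 2-fold higher in experiment 1, 21 (9.95%) were among 53 tested ependymal, choroid, contractile and fibroblast genes, which is 39.6% of the 53. Of the 43 that reached the level in both, 17 (39.5%) were, beside 124 (1.19%) of the 10384. Of the 99 tested genes of the oligodendrocyte lists, 2 (Trf and Evi2a) were at least 2-fold higher in experiment 2 and 1 (Enpp2) in experiment 1.

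Genes outside any cell type list also led. Slc15a3, a peptide transporter of phagocyte endosomes, was at 0.664, 2.16 and 3.36 CPM against 43.6, 54.9 and 77.7 CPM (-4.62). Bcl2a1b, a survival gene with near-identical copies (-4.18, uncertain for that reason), Ctla2a, a cathepsin inhibitor (-4.10), and Cd37, a leukocyte tetraspanin (-3.88), were higher in experiment 2. All of these, Slc15a3 included, passed the filter through experiment 2, which favoured a higher level there. In experiment 1, Ccn5 (2.66), a matricellular protein, Itga3 (2.36), an integrin chain, and Bmp6 (2.35), a growth factor, led. The keratin genes Krt8 (2.93) and Krt18 (2.64), epithelial filament partners, rested partly on replicate 6 of experiment 1, at 188 and 324 CPM against medians of 35.8 and 77.3 CPM in that experiment. Without that well their log2 fold changes were 2.24 and 2.04 and both still passed. Ccn5, Bmp6 and Krt8 passed the filter through experiment 1, which favoured a higher level there.

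Division genes showed small differences. Of 27 tested DNA replication genes, 9 were higher in experiment 1, 1 in experiment 2 and 17 did not pass (median 0.10), and of 29 mitosis genes 11 were higher in experiment 1, 2 in experiment 2 and 16 did not pass (median 0.17). Both summed shares overlapped. The parts of the lists called either way, 37.0% and 44.8%, were under or near the 43.6% over all genes tested. Mki67, the proliferation antigen Ki-67, was at 114, 131 and 145 CPM against 101, 101 and 129 CPM (0.27, adjusted p = 0.00240), while Top2a, a topoisomerase of dividing cells, did not pass at medians of 308 and 290 CPM (0.07, interval -0.05 to 0.18). Cdk1 (0.45), Cks2 (1.10), Cdc45 (0.74) and the sliding clamp gene Pcna (0.53) were higher in experiment 1 in every well, and the helicase subunit gene Mcm7 was higher in experiment 2 (-0.29). Fen1, a flap endonuclease of DNA replication, was listed at 0 in all 12 wells, which can be a failure of counting, and was named after its values were seen.

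Cholesterol synthesis, which supplies myelin and which astrocytes also run, was higher in experiment 1 across nearly the whole pathway. Of 23 tested genes, 21 were higher in experiment 1, none in experiment 2 and 2 did not pass (median 0.56). The list took 0.247%, 0.259% and 0.279% of counts against 0.163%, 0.175% and 0.187%. Hmgcs1, which makes the HMG-CoA of the pathway, was at 464, 495 and 518 CPM against 202, 240 and 279 CPM (1.02), and the later enzymes Sqle (0.59), Lss (1.06), Cyp51 (0.73) and Nsdhl (1.11) were higher in every well. Fatty acid and sphingolipid genes showed smaller differences: 14 of 29 were higher in experiment 1, 1 in experiment 2 and 14 did not pass (median 0.25). The desaturase genes Scd2 (0.29), Scd1 (0.87) and Fads1 (0.49) and the plasmalogen enzyme gene Gnpat (0.64) were higher in experiment 1, and Kdsr, an enzyme of ceramide synthesis named after its values were seen, in experiment 2 (-0.41).

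**Figure D4:**
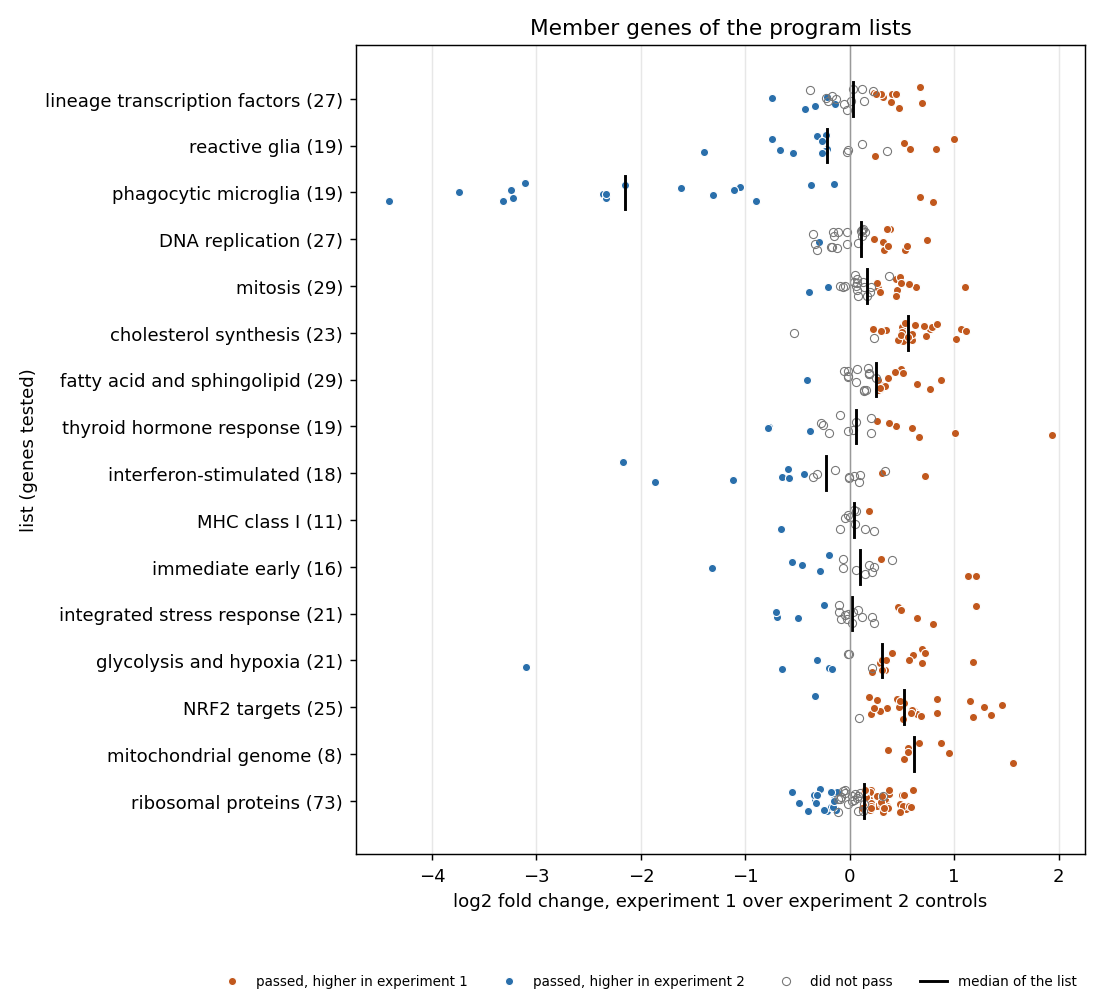
Log2 fold change (experiment 1 over experiment 2 controls, x axis) of each tested gene of the program lists, 1 point per gene, filled where it passed edgeR's test, with the list's median as a black bar. Medians are 0.56 for cholesterol synthesis and 0.52 for NRF2 targets and other antioxidant genes. For phagocytic microglia the median is -2.15 (-1.31 over the members that reached the filter's level in both experiments). The lineage transcription factors centre on 0.03.

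Genes of the list of NRF2 targets and other antioxidant genes were also higher in experiment 1. Of 25 tested, 23 were higher there, 1 in experiment 2 and 1 did not pass (median 0.52), and the list took 1.80% to 1.87% of counts against 1.36% to 1.55%. The glutathione transferase genes Gstm1, at 1349, 1463 and 1593 CPM against 573, 597 and 632 CPM (1.28), and Gsta4 (1.45) and the quinone reductase gene Nqo1, at 59.1, 73.1 and 91.2 CPM against 28.4, 31.6 and 35.5 CPM (1.18), led by size among those named. Fth1, ferritin heavy chain, was the most abundant of them at medians of 6967 and 6104 CPM (0.18). Hmox1, heme oxygenase 1, was higher in experiment 2 (-0.33), and Gsr, glutathione reductase, did not pass (0.08, interval -0.06 to 0.23); both were named after their values were seen.

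Mitochondrial genome transcripts were higher in experiment 1 for all 8 tested of 13 (median 0.61), with 5 listed at 0 in all wells. They included mt-Cytb (0.95), mt-Nd2 (0.52) and mt-Nd3 (1.56), and nuclear copies of mitochondrial genes make such counts uncertain. Of 73 tested cytosolic ribosomal protein genes, which have many copies, 37 were higher in experiment 1, 17 in experiment 2 and 19 did not pass (median 0.14), and their summed share overlapped.

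Thyroid hormone genes bear on the differentiating factor. Of 19 tested, 7 were higher in experiment 1, 3 in experiment 2 and 9 did not pass (median 0.06). Of the 16 that reached the filter's level in both, 7 were higher in experiment 1 and 1 in experiment 2 (median 0.20). Those 7 include Ttr (1.94) and Slco1c1 (1.01), described above with the choroid plexus and endothelial lists, to which they also belong. Thra, the main thyroid hormone receptor of brain, was at 177, 201 and 243 CPM against 166, 170 and 190 CPM (0.26), with overlap. Crym, a T3-binding protein, was called (0.66), but not without replicate 4 of experiment 1 (0.43, adjusted p = 0.0731).

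Stress and signalling programs had mixed directions. Interferon-stimulated genes numbered 2 higher in experiment 1, 7 higher in experiment 2 and 9 that did not pass of 18 tested (median -0.23), with Xaf1, a proapoptotic interferon-induced gene, at -2.17. Of these, 4 reached the filter's level only in experiment 2 and 1 only in experiment 1. The 12 that reached it in both gave 2 against 3 with a median of -0.08. Of 11 tested genes of antigen presentation, 1 was higher in each experiment, and 1 in all passed under several scalings and with DESeq2. Immediate early genes, which respond to handling, numbered 3 and 5 of 16, and genes of the integrated stress response 5 and 4 of 21. The shares called either way, 50% and 42.9%, were near the 43.6% over all genes tested. In the glycolysis and hypoxia list 13 of 21 were higher in experiment 1 and 5 in experiment 2 (median 0.31). Its lactate exporter gene Slc16a3, also expressed in phagocytes, was at 1.33 to 5.09 CPM against 22.2 to 28.8 CPM (-3.10). Slc16a3 passed the filter through experiment 2, which favoured a higher level there. Of the 20 in this list that reached the filter's level in both, 13 were higher in experiment 1 and 4 in experiment 2.

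Among secreted factors, 3 of 18 tested were higher in experiment 1 and 6 in experiment 2, or 3 and 4 of the 15 that reached the filter's level in both. Tgfb3, a transforming growth factor, was at 43.5, 48.0 and 58.3 CPM against 7.38, 16.2 and 19.3 CPM (1.72). Fgf2, a mitogen of precursors, was at 48.0, 57.3 and 73.6 CPM against 78.3, 103 and 108 CPM (-0.74). The chemokine genes Ccl2 (0.73) and Cxcl12 (-1.05), which draw monocytes and migrating precursors, differed in opposite directions without overlap. Both Xist, expressed from the inactive X chromosome of females (-0.44), and the Y-linked Eif2s3y (0.61) were detected in every well, while Ddx3y, also Y-linked and in every well, did not pass (0.29, adjusted p = 0.0504). Ddx3y passed under 4 alternatives, 2 of them without replicate 4 of experiment 1 or 5 of experiment 2.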

How the data were processed

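The deposited values are raw counts, whole numbers for 55359 Ensembl gene rows in 24 wells, with unlike totals per well. Libraries were 3′ tag libraries read single-end at 100 bases, per the labels' protocols. The submitters' processing notes name cutadapt 1.18, STAR and the GRCm39 build, with no role or order. The counter, annotation release, use of strand and removal of PCR duplicates are not given in the sources used here, so overlapping, antisense and multi-copy genes are uncertain. The reference at hand was GRCm38, so no gene coordinates are given except those of RefSeq promoter windows on GRCm38.p6. Symbols were found for 52083 rows (94.1%).

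The 12 control wells were fitted with edgeR 4.0.16 in R 4.3.3: TMM scaling, filterByExpr at a minimum of 10 counts, the robust quasi-likelihood test and Benjamini-Hochberg adjustment over all 13479 genes, with calls at an adjusted p under 0.05. CPM are counts scaled to the effective library size after TMM, list shares are percentages of all raw counts of a well, SE is the standard error of a log2 fold change, and 95% intervals are 1.96 SE either side. A gene in a list passed the filter if 6 wells reached it, so a member can have passed through 1 experiment only. On simulated counts with 200 genes changed, changes of 0.5 (log2) were recovered at 53.2% (13407 genes tested, 10.7% of calls false) and changes of 1 at 97.3% (13401 genes, 5.79% false), and 0 genes were called with no change. In the data 5881 genes were called, far more than the 200 changed here, so these rates need not hold for this comparison. Wells of a group differed from each other by more than counting noise (chi-square per degree of freedom 1.07 to 2.05, largest p 3.4e-11), so none was merged as a duplicate. Library preparation alone could give such a spread, so this does not show separate cultures.

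Members and lists (35 lists, 828 of 829 entries matched) were chosen with earlier results of these data known. Named are the 10 largest differences each way among called genes without overlap and with a mean log2 CPM of at least 3; in each list up to 4 members of highest level and 6 with the largest called differences; all members of lists at the floor; and fixed defining and lineage genes. The 7 genes Slc1a2, Sall1, Axl, Kdsr, Hmox1, Gsr and Fen1, Col5a1, Col5a2 and Col6a1, untested members named with their counts and genes holding a motif fall outside and were named after their values were seen. Some genes that the rule names are not reported here. Alternatives covered scaling (RLE, upper quartile, none, lineage genes, without mitochondrial and ribosomal protein genes), the filter, DESeq2 1.42.0, limma 3.58.1 voom, a joint fit of 24 wells, a replicate block, thresholds and each well left out.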

Additional observations from a re-analysis of the deposited data

Results flagged for a closer look

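In each group of 6 wells, the highest or lowest well was set against Dixon's 95% critical value for its gap to the nearest other well. Of 428 series of values tested, 24 passed it, where chance gives about 1 in 20, or 21.4.

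Replicate 6 of experiment 1 accounted for 8 of the 24. It was lowest for Gfap (1236 CPM), Ntsr2 (16.0 CPM), Apoe (3674 CPM), Ctsb (839 CPM) and the share of the phagocytic microglia list (0.963%), and highest for Tpm2 (60.8 CPM), Krt8 (188 CPM) and Krt18 (324 CPM). Its score on the second principal component was 15.1, the highest of the 12 wells. Replicate 1 of experiment 1 was highest for Scd2 (3003 CPM) and for the share of fatty acid and sphingolipid genes (0.746%), and replicate 3 for Ly86 (19.9 CPM).

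In experiment 2, replicate 1 was lowest for Steap4 (53.7 CPM). Replicate 2 was highest for Trem2 (421 CPM), Csf1 (144 CPM), Sparc (1525 CPM) and the share of immediate early genes (0.129%). Replicate 3 was lowest for Cd14 (30.8 CPM) and Loxl1 (18.6 CPM). Replicate 4 was highest for Zic1 (25.4 CPM) and lowest for Snhg11 (19.8 CPM) and Nefm (18.2 CPM). Replicate 6 was highest for Tmem119 (18.5 CPM) and lowest for Cks2 (4.26 CPM) and Nsdhl (12.1 CPM).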

How the results depend on the processing

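Counts of genes that differed stayed within 1.5 times the main 5881 under each other scaling, filter and tool, at 4891 with DESeq2, 5859 with limma voom, 5475 with lineage scaling, 7218 with no filter and 7331 with a filter of 1 CPM. Leaving out 1 well at a time gave 5388 to 6274 genes, with 2693 to 3056 higher in experiment 1 and 2649 to 3218 in experiment 2. A minimum absolute log2 fold change of 0.5 left 3142 (1234 and 1908), and one of 1 left 718 (211 and 507). The difference in total count ranged from 122578 to 240428 with 1 well left out, the latter without replicate 6 of experiment 1, and was 209215 without replicate 1 of experiment 2.

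The replicate numbers of the sample descriptions do not pair the wells: same-numbered wells' deviations correlated at -0.0405 to 0.0630, and 1 of 6 correlated best with its own number. A replicate block gave 5915 genes and, among the named genes that passed, ended the call of Col3a1.

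Of 169 named genes tested, 145 kept direction and side of the threshold under each of the 23 alternatives that tested them, 8 lost a call (Aqp4, Col3a1, Crym, Cspg5, Hes5, Neu4, Olig2 and Pdgfra), 10 gained one (Cnp, Dcn, Ddx3y, Fyn, Gap43, Mag, Myrf, Olig1, Pmp22 and Sox8) and 6 changed sign, all of the last not having passed. Upper quartile scaling turned Mbp to -0.017, Mog to -0.024, Nkx2-2 to -0.034 and Slc1a3 to -0.0031. With no scaling factor Mog was -0.0065 and Nkx2-2 -0.016. With 1 well left out in turn, Mog ranged from -0.0118 to 0.0906, Gpr17 from -0.0042 to 0.141, Nkx2-2 from -0.0152 to 0.128 and Sall1 from -0.120 to 0.0296. Sall1 was 0.011 with no filter and 0.0014 with 1 CPM. List medians changed sign for endothelium (0.0308 with no filter, 0.207 with 1 CPM) and for the red cell list (-1.73 and -1.70, with 3 genes called), as more genes were tested. The pericyte median also changed sign with single wells left out. It was -0.11 in the main fit and 0.056, 0.11 and 0.13 without replicates 1, 2 and 4 of experiment 1. At this depth, genes under 3 counts in a well (1.70 to 2.40 CPM) were not measurable.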
